A study of Mus musculus with 26 samples.

Results

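Progress of a cell from G1 into S phase is set by the G1 cyclins, the kinase they partner, the inhibitors that hold that kinase back and the transcription factor Myc, and 10 genes of this machinery were followed here in mouse intestinal organoids given arachidonic acid or prostaglandin E2. They were the D-type cyclins Ccnd1, Ccnd2 and Ccnd3, the E-type cyclins Ccne1 and Ccne2, the kinase Cdk6, the inhibitors Cdkn1a (p21), Cdkn1b (p27) and Cdkn2b (p15), and Myc. The genes were chosen by name for these roles, with earlier results of these data known, which is also true of the gene lists below. All 10 were found by symbol among the 55385 gene identifiers of both deposited count tables. All 10 passed the filter on low counts at every time.

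The organoids were grown from crypts of C57BL/6 mice in Matrigel, and the labels name no mutation or transgene in any group. Total RNA was taken, and the library kit marks strand. Vehicle, arachidonic acid (AA) at 25 µM and PGE2 at 50 nM were each applied for 1 day or 3 days with 3 libraries a group, and vehicle and AA for 6 days with 4 libraries a group, making 26 libraries in 8 groups. All groups, vehicle included, shared a medium with EGF, Noggin, R-spondin, the GSK3 inhibitor CHIR-99021, the ROCK inhibitor Y-27632, N-acetylcysteine, B27 and N2, so growth factor and Wnt signals were supplied throughout. PGE2 is the name on the samples, but a dimethyl analogue is named in the study's overall design, and which compound was used is not given. The ages and number of mice are not given either, nor whether libraries of a group came from separate cultures, so the p-values below measure the spread between these libraries, which may be technical.

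D-type cyclins are made when a cell receives growth signals and bind CDK4 or CDK6, and the active kinase phosphorylates the retinoblastoma protein RB1 so that E2F factors can switch on S-phase genes. E-type cyclins are themselves E2F targets and activate CDK2 at the G1/S boundary. The INK4 protein p15, made from Cdkn2b, binds CDK4 and CDK6 and blocks them, whereas p21 and p27 block cyclin E-CDK2 complexes and can also help D cyclins assemble with their kinases. In the intestinal crypt, Myc is a well-known Wnt target and drives ribosome production, and p21 marks cells that leave the cycle as they move up towards the villus.

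The libraries of days 1 and 3 held 1.01e+07 to 1.46e+07 counts each and those of day 6 held 1.61e+07 to 1.98e+07. The 2 sets of days were deposited as separate tables. Mitochondrial rRNA took 6.74% to 10.3% of counts at days 1 and 3 and at most 0.266% at day 6, so levels are compared here only within a table. The tissue label held: the 8 epithelial markers summed to between 4289 and 13362 CPM (counts scaled to library size) in every library, whereas the fibroblast, the immune and the endothelial and neural marker lists each summed to at most 2.12 CPM, with Lum, Col3a1 and Kdr at 0 in most groups. Replicate 4 of the day-6 vehicle group stood apart from its group on the first principal components, and results that turn on it are given with and without it.

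Counts behind the members ran from 53 to 541 per library for Cdkn2b and from 9345 to 38061 for Ccnd2. Cdkn2b carried the widest errors of log2 changes at days 1 and 3, whereas at day 6 that of Myc was wider. Levels were divided by the merged length of all annotated exons of a gene, which allows a rough ranking. That length can exceed the length of the transcripts made, which was not measured. The vehicle level of day 1 was 122 CPM per kb for Ccnd2, 63.9 for Ccnd1, 39.5 for Cdkn1a, 39.1 for Myc, 20.9 for Cdk6, 13.1 for Cdkn1b, 11.7 for Ccne1, 10.2 for Ccne2, 5.62 for Ccnd3 and 3.18 for Cdkn2b. Ccnd2 was thus the leading D cyclin per length in these organoids and Cdkn2b the scarcest member. In GENCODE M21, the mouse annotation on GRCm38 that holds all 10 identifiers, exons of opposite-strand genes cover 23.4% of the exon bases of Ccnd1 (gene LTO1) and 17.4% of those of Ccne2 (Ints8). They cover 4.11% of those of Ccnd3, 2.63% of those of Cdk6 and 7.68% of those of Cdkn1a. Exons of Ccnd2 are overlapped by Gm43126 over 3.95% and by 9330179D12Rik over 3.91%, each counted by itself. The strand setting of the counting is not given, so reads in those stretches may not be told apart. No such overlap touches Ccne1, Cdkn1b, Cdkn2b or Myc.

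**Figure D1:**
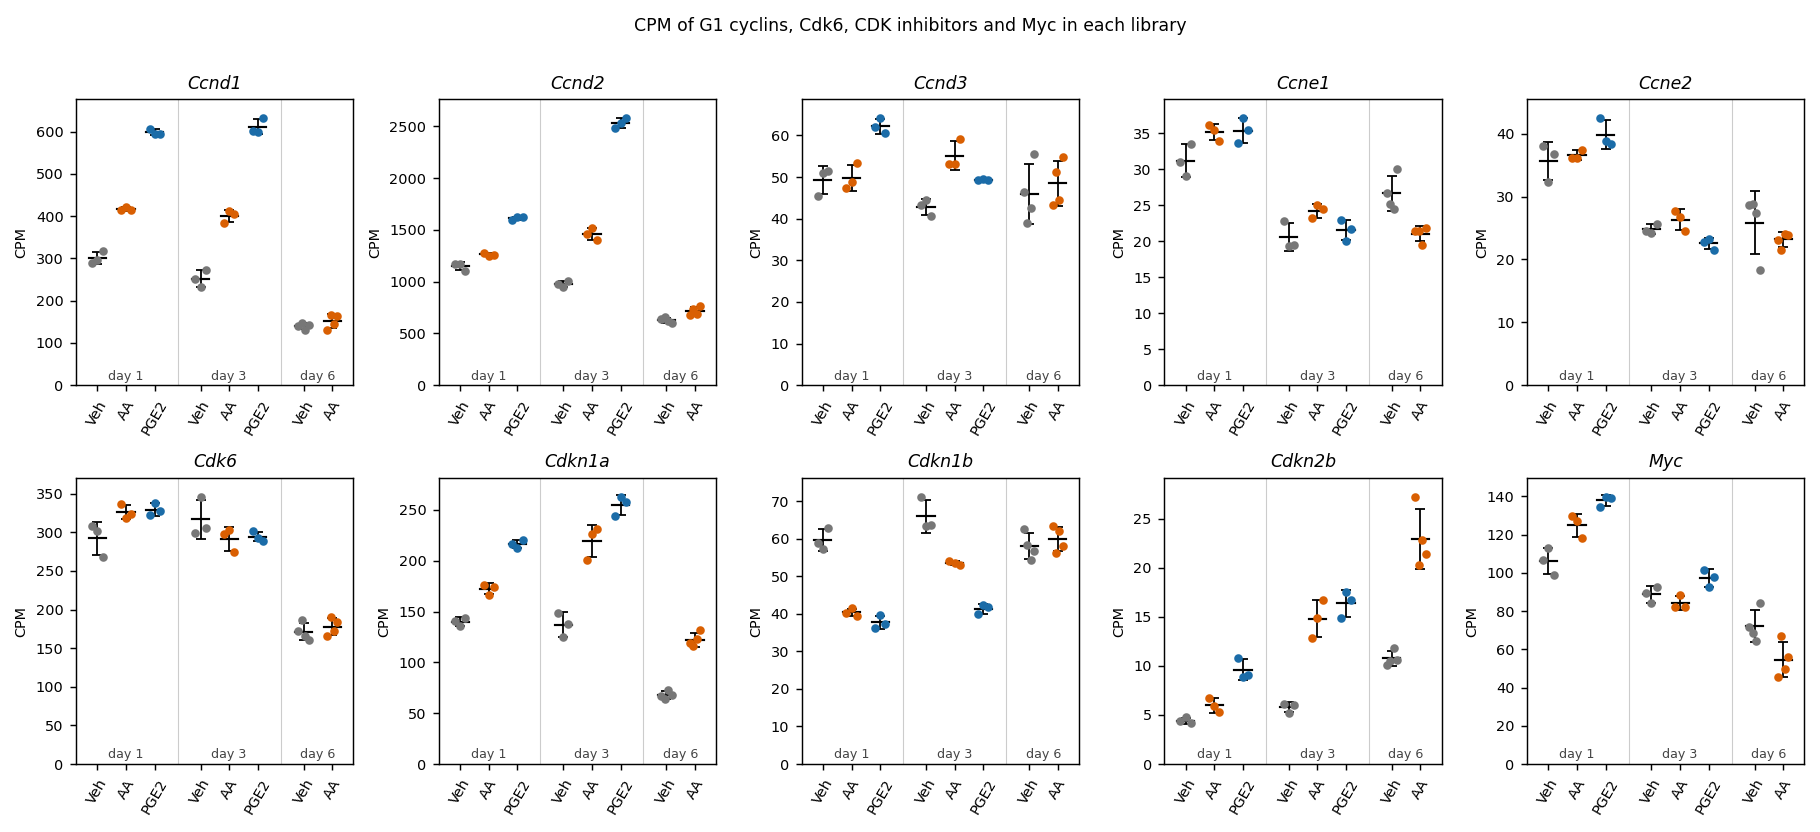
Level of each of the 10 genes in all 26 libraries, in TMM-scaled CPM on a linear axis that starts at 0, with days 1, 3 and 6 along the x axis, 1 point per library and a bar at each group's mean ± SD. Ccnd1, Ccnd2, Cdkn1a and Cdkn2b climb from vehicle to AA to PGE2 at day 3, Cdkn1b steps down in the same order, and at day 6 Cdkn1a and Cdkn2b stand above vehicle with AA (122 against 68.0 CPM and 22.9 against 10.8 CPM).

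Each treatment was compared with the vehicle of its day by edgeR's quasi-likelihood test on the counts, with Benjamini-Hochberg adjustment over all genes tested and a threshold of 0.05. With AA at day 1, 7 members were higher and 1 was lower. Of all genes, 41.7% were called, 19.5% higher and 22.2% lower. With AA at day 3, 6 were higher and 1 was lower, against 41.3% of all genes called (21.2% higher and 20.1% lower). At day 6, 3 were higher and 2 lower, against 30.7% (15.3% and 15.5%). With PGE2, 9 members were higher and 1 was lower at day 1, against 55.9% of all genes (27.0% higher and 28.9% lower). At day 3, 6 were higher and 1 lower, against 58.9% (28.9% and 30.1%). These treatments called a large share of the transcriptome, so a member being called is common here, and the sizes and the direction of each gene carry the description below. AA and PGE2 were set against the same vehicle libraries at days 1 and 3, so their fold changes are not independent of each other.

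**Figure D2:**
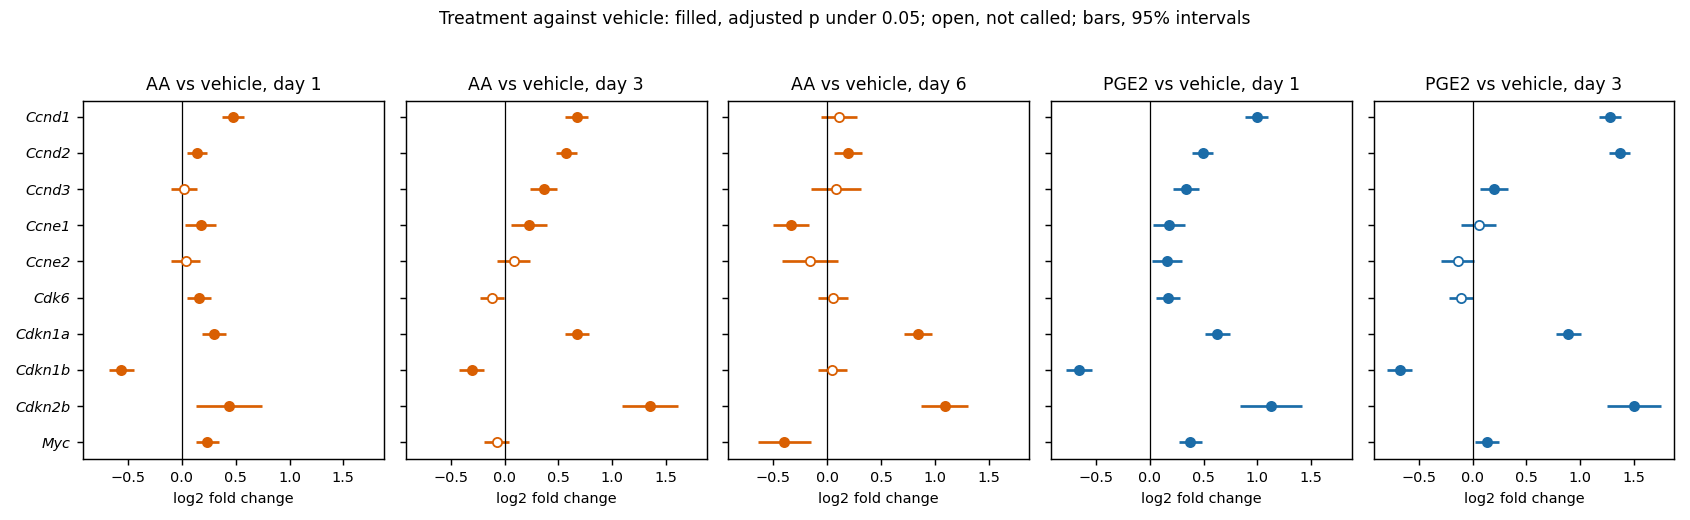
Log2 fold change of each of the 10 genes against the vehicle of its day, with 95% intervals, for AA at days 1, 3 and 6 and PGE2 at days 1 and 3. Filled points are called at an adjusted p under 0.05. Cdkn2b reaches 1.499 with PGE2 at day 3, Ccnd2 1.37 and Ccnd1 1.28, while Cdkn1b lies at -0.68, the lowest value drawn.

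Ccnd1, whose protein links growth factor and Wnt signals to CDK4 and CDK6, lies on chromosome 7 at 144929931 to 144939925 on the minus strand. At day 1 it stood at 289.6, 297 and 316 CPM with vehicle, at 416, 421 and 414 CPM with AA and at 607, 595 and 595 CPM with PGE2. At day 3 the values were 251, 232 and 273 CPM, then 385, 413 and 405 CPM, then 602, 599.9 and 632 CPM in the same order. On both days every PGE2 library lay above every AA library and every AA library above every vehicle library. The rise was 1.39-fold with AA at day 1 (log2 0.47 ± 0.05 SE, adjusted p = 5.7e-09) and 1.59-fold at day 3 (0.67 ± 0.05, adjusted p = 4.5e-12). With PGE2 it was 1.99-fold at day 1 (0.99 ± 0.05, adjusted p = 8.5e-17) and 2.43-fold at day 3 (1.28 ± 0.05, adjusted p = 2.9e-19). At day 6 the vehicle libraries held 141, 148, 132 and 142 CPM and the AA libraries 131, 167, 144 and 164 CPM. These groups overlapped, and the log2 difference of 0.11 had a 95% interval of -0.06 to 0.28 (adjusted p = 0.30).

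Ccnd2, the D cyclin with the highest level per length, is annotated on chromosome 6 at 127125162 to 127152193 on the minus strand. It measured 1173, 1167 and 1103 CPM with vehicle at day 1, 1275, 1252 and 1261 CPM with AA and 1591, 1620.4 and 1623 CPM with PGE2. At day 3 vehicle gave 981, 952 and 1006 CPM, AA 1457, 1516 and 1401 CPM and PGE2 2481, 2532 and 2579 CPM. The order of the groups was that of Ccnd1 and none of them overlapped. With PGE2 the fold grew from 1.40 at day 1 (log2 0.49 ± 0.05, adjusted p = 2.0e-10) to 2.58 at day 3 (1.37 ± 0.05, adjusted p = 8.2e-21). With AA it grew from 1.10 (0.14 ± 0.05, adjusted p = 0.017) to 1.49 (0.57 ± 0.05, adjusted p = 2.0e-11). At day 6 vehicle read 637, 659, 617 and 598 CPM and AA 681, 735, 687 and 765 CPM, groups that lay close without overlapping. That rise was 1.14-fold (0.19 ± 0.06, adjusted p = 0.028). The 2 smallest calls were lost when certain single libraries were left out. The day-1 call ended when vehicle replicate 3 (0.11, adjusted p = 0.092) or AA replicate 1 (0.13, adjusted p = 0.063) was left out. The day-6 call ended without vehicle replicate 1 (0.20, adjusted p = 0.062) or 3 (0.18, adjusted p = 0.070) or AA replicate 2 (0.18, adjusted p = 0.065) or 4 (0.16, adjusted p = 0.093).

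Ccnd3, the third D cyclin, is annotated on chromosome 17 at 47505051 to 47599691 on the plus strand and was the lowest of the family per length. At day 1 it held 45.4, 50.9 and 51.6 CPM with vehicle, 47.4, 48.7 and 53.3 CPM with AA and 62.0, 64.1 and 60.5 CPM with PGE2. The AA libraries overlapped the vehicle range, and the PGE2 libraries all stood above both. At day 3 vehicle read 43.3, 44.6 and 40.8 CPM, AA 53.2, 53.04 and 59.1 CPM and PGE2 49.4, 49.4 and 49.2 CPM, so that AA now lay above PGE2. The log2 change with AA was 0.02 at day 1 (95% interval -0.11 to 0.14, adjusted p = 0.85) and 0.36 ± 0.06 at day 3 (1.29-fold, adjusted p = 1.8e-05). With PGE2 it was 0.34 ± 0.06 at day 1 (1.26-fold, adjusted p = 1.8e-05) and 0.20 ± 0.06 at day 3 (1.15-fold, adjusted p = 0.0065), and leaving out vehicle replicate 3 ended the day-3 call (0.15, adjusted p = 0.064). At day 6 the groups overlapped, from 38.9 to 55.6 CPM with vehicle and from 43.3 to 54.8 CPM with AA (0.08, 95% interval -0.15 to 0.32, adjusted p = 0.58).

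As a share of all D cyclin counts in a library, a measure that needs no scaling between libraries, Ccnd2 made up 76.6 ± 1.46% (SD, n = 3) with vehicle at day 1, 73.0 ± 0.326% with AA and 70.9 ± 0.445% with PGE2. Ccnd1 gained what Ccnd2 gave up, going from 20.1 ± 1.24% to 24.1 ± 0.302% and 26.3 ± 0.435%. At day 3 PGE2 moved from the lowest Ccnd2 share to the highest. Ccnd2 then made up 76.9 ± 0.632% with vehicle, 76.2 ± 0.918% with AA and 79.3 ± 0.255% with PGE2, and the Ccnd1 share lay between 18.9% and 21.7% in all 9 libraries. Ccnd3 dropped to 1.55 ± 0.0341% with PGE2 at day 3, against 3.37 ± 0.271% with vehicle, although its own level was not lower. At day 6 the Ccnd2 share was 77.1 ± 1.29% with vehicle and 78.2 ± 1.082% with AA, and their ranges overlapped.

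**Figure D3:**
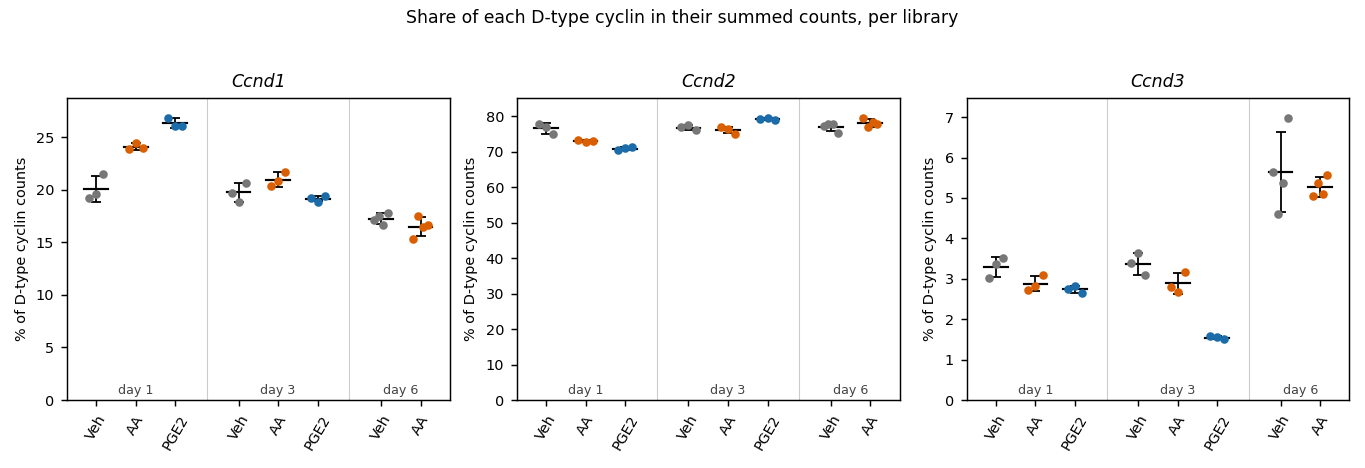
Share of each D cyclin in the summed counts of the 3 D cyclins, in percent on the y axis, for every library, by group and day, with the mean ± SD. At day 1 Ccnd1 rises from 20.1% with vehicle to 26.3% with PGE2 while Ccnd2 goes from 76.6% to 70.9%, and at day 3 PGE2 carries the highest Ccnd2 share at 79.3%.

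No called change of an E cyclin against vehicle was larger in size than that of Ccne1 at day 6 (-0.34 on the log2 scale). Ccne1, which activates CDK2 at the G1/S boundary and lies on chromosome 7 at 38097984 to 38107534 on the minus strand, stood at 31.0, 29.1 and 33.6 CPM with vehicle at day 1, at 36.1, 35.5 and 34.0 CPM with AA and at 33.6, 37.1 and 35.5 CPM with PGE2. By day 3 vehicle gave 22.9, 19.4 and 19.5 CPM, AA 23.2, 25.0 and 24.5 CPM and PGE2 22.9, 20.1 and 21.7 CPM. The treated libraries of each day thus lay within a few CPM of the vehicle, and the PGE2 libraries of day 3 overlapped its range. The log2 change with AA was 0.17 ± 0.07 at day 1 (adjusted p = 0.047) and 0.23 ± 0.08 at day 3 (adjusted p = 0.025), and with PGE2 0.18 ± 0.07 at day 1 (adjusted p = 0.035) and 0.06 at day 3 (95% interval -0.11 to 0.22, adjusted p = 0.56). Every one of these 3 calls was lost without single libraries. This held for the AA call of day 1 without any of its 6 libraries but vehicle replicate 3 (0.12 to 0.20, adjusted p 0.053 to 0.22). It held for the AA call of day 3 without vehicle or AA replicate 2 or 3 (0.18 to 0.22, adjusted p 0.057 to 0.11). The PGE2 call of day 1 was lost without vehicle replicate 1 or 2 or PGE2 replicate 2 or 3 (0.13 to 0.17, adjusted p 0.083 to 0.18). At day 6 the direction was the opposite. Vehicle held 26.8, 25.3, 24.5 and 30.1 CPM and AA 21.4, 21.4, 19.5 and 21.9 CPM, with no overlap, a fall of 1.26-fold (log2 -0.34 ± 0.08, adjusted p = 0.0064).

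Ccne2, on chromosome 4 at 11191351 to 11204779 on the plus strand, measured 38.1, 32.3 and 36.8 CPM with vehicle at day 1, 36.2, 36.2 and 37.5 CPM with AA and 42.5, 38.8 and 38.3 CPM with PGE2. At day 3 the values were 24.6, 24.2 and 25.7 CPM with vehicle, 27.7, 26.8 and 24.5 CPM with AA and 22.8, 23.3 and 21.5 CPM with PGE2. AA overlapped vehicle on both days, and PGE2 lay just above vehicle at day 1 and just below it at day 3. AA gave log2 differences of 0.04 (95% interval -0.10 to 0.17) and 0.08 (-0.07 to 0.24), neither of them called. PGE2 gave 0.16 ± 0.07 at day 1 (adjusted p = 0.043) and -0.14 at day 3 (95% interval -0.29 to 0.02, adjusted p = 0.11). The day-1 call needed both vehicle replicate 2 (0.09 without it, adjusted p = 0.30) and PGE2 replicate 1 (0.11 without it, adjusted p = 0.26). At day 6 vehicle replicates 1 to 3 held 28.7, 28.9 and 27.4 CPM, replicate 4 only 18.4 CPM, and the AA libraries 23.1, 21.6, 24.1 and 24.0 CPM. With all libraries the difference was -0.16 (95% interval -0.42 to 0.10, adjusted p = 0.33), and without vehicle replicate 4 it was -0.29 and passed the test (adjusted p = 0.0026).

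Cdk6, the kinase that D cyclins activate, lies on chromosome 5 at 3341485 to 3531008 on the plus strand and moved little. It stood at 308, 302 and 267 CPM with vehicle at day 1, at 337, 319 and 324 CPM with AA and at 322, 338 and 327 CPM with PGE2. At day 3 vehicle gave 299, 346 and 305 CPM, AA 298, 303 and 274 CPM and PGE2 301, 293 and 289 CPM. Both treatments lay above vehicle at day 1, 1.12-fold with AA and 1.13-fold with PGE2, and overlapped it at day 3. The rise at day 1 was 0.16 ± 0.05 with AA (log2, adjusted p = 0.020) and 0.17 ± 0.06 with PGE2 (adjusted p = 0.0092). Leaving out vehicle replicate 3 ended both calls (0.10, adjusted p = 0.18, and 0.11, adjusted p = 0.10), and leaving out AA replicate 1 ended the first (0.13, adjusted p = 0.095). At day 3 the log2 differences were -0.12 with AA (95% interval -0.23 to -0.01, adjusted p = 0.087) and -0.10 with PGE2 (-0.22 to 0.01, adjusted p = 0.10). The PGE2 difference was called without vehicle replicate 1 (-0.17, adjusted p = 0.021) or 3 (-0.14, adjusted p = 0.046). At day 6 the vehicle range of 160.5 to 186 CPM and the AA range of 166 to 190.0 CPM overlapped (0.06, 95% interval -0.08 to 0.19).

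The 3 inhibitors split in direction: Cdkn1a and Cdkn2b rose with both treatments while Cdkn1b fell. Their start regions are printed because they differ in the short motifs they hold, 300 bases each from the RefSeq promoter table on GRCm38.p6, running from 250 bases before the annotated start to 50 bases after it, written in the direction of transcription with motif matches in capitals. Windows were found for 6 of the 10 members, 8 windows in all.
Cdkn2b, chr4:89310983-89311282, minus strand: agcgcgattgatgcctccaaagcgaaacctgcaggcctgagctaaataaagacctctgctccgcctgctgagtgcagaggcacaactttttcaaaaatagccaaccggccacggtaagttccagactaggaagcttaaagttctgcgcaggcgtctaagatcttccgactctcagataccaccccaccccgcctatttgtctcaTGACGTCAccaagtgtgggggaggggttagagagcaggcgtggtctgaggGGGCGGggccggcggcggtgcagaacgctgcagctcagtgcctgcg
Cdkn1a, upstream start, chr17:29090729-29091028, plus strand: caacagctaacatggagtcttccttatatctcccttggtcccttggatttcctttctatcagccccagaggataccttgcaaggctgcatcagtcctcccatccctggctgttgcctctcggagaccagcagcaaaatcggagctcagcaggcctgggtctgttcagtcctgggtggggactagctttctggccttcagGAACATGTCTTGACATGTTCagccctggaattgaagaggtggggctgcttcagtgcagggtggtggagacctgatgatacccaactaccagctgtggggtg
Cdkn1a, downstream start, chr17:29093519-29093818, plus strand: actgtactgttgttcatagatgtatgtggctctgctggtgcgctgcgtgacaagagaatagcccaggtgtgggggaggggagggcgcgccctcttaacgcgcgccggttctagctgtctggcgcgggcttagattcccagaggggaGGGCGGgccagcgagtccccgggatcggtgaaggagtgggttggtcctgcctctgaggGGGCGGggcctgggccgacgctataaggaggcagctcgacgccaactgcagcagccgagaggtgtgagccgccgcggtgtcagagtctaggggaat
Cdkn1b, chr6:134920151-134920450, plus strand: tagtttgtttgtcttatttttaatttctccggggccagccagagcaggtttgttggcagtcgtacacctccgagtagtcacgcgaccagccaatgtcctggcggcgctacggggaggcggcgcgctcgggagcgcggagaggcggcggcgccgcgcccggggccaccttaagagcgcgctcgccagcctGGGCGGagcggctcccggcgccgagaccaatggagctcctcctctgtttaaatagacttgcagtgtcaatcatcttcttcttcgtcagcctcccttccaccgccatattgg
The capitals in Cdkn2b mark a full cAMP response element, TGACGTCA, beginning 46 bases before the start, and a GC box, GGGCGG, at base 5 after it. The capitals in the upstream Cdkn1a window mark a p53 response element 51 bases before that start, found with 1 mismatch allowed outside its fixed core, and those in the downstream window mark GC boxes 104 and 46 bases before the start. Cdkn1b holds 1 GC box, 61 bases before its start. Both strands were searched for the 4 motifs, and no match overlapped another. Among 32851 windows of this length the full cAMP response element was in 1.79%, the GC box in 35.66%, the E-box CACGTG bound by Myc and its partners in 7.15% and the p53 element in 0.06697%. Among the members' other windows, Ccnd3 and Ccne1 held GC boxes and Cdk6 an E-box 220 bases before its start. A match says only that these letters are present.

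Cdkn1a, which encodes the CDK inhibitor p21, is a classic p53 target and lies on chromosome 17 at 29090976 to 29100727 on the plus strand, was called higher in every treatment comparison. At day 1 it stood at 141, 136 and 144 CPM with vehicle, at 176, 166 and 175 CPM with AA and at 216, 213 and 221 CPM with PGE2. By day 3 vehicle gave 149, 125 and 138 CPM, AA 201, 226 and 231 CPM and PGE2 244, 263 and 258 CPM. At day 6 vehicle gave 67.4, 63.7, 73.2 and 67.7 CPM and AA 119, 116, 123 and 132 CPM. No treated library overlapped the vehicle libraries of its day. With AA the rise was 1.23-fold at day 1 (log2 0.30 ± 0.06, adjusted p = 6.9e-05), 1.60-fold at day 3 (0.67 ± 0.06, adjusted p = 3.1e-11) and 1.80-fold at day 6 (0.85 ± 0.06, adjusted p = 2.9e-06). With PGE2 it was 1.54-fold at day 1 (0.63 ± 0.06, adjusted p = 4.4e-11) and 1.86-fold at day 3 (0.89 ± 0.06, adjusted p = 1.3e-14).

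Cdkn2b, which encodes the CDK4 and CDK6 inhibitor p15, is known in epithelial cells as a target of TGF-beta and lies on chromosome 4 at 89306299 to 89311039 on the minus strand, had the largest folds of the 10 genes at day 3. At day 1 vehicle held 4.36, 4.77 and 4.14 CPM, AA 6.77, 5.95 and 5.25 CPM and PGE2 10.8, 8.86 and 9.12 CPM. At day 3 vehicle held 6.13, 5.22 and 6.00 CPM, AA 12.9, 14.9 and 16.7 CPM and PGE2 14.9, 17.6 and 16.7 CPM. At day 6 it stood at 10.1, 10.48, 11.9 and 10.6 CPM with vehicle and at 27.2, 20.3, 22.9 and 21.4 CPM with AA. All treated libraries lay above the vehicle of their day, and at day 3 the AA and PGE2 libraries overlapped. The rise with AA was 1.36-fold at day 1 (log2 0.44 ± 0.15, adjusted p = 0.018), 2.55-fold at day 3 (1.35 ± 0.13, adjusted p = 4.0e-10) and 2.13-fold at day 6 (1.09 ± 0.10, adjusted p = 1.6e-05). With PGE2 it was 2.18-fold at day 1 (1.13 ± 0.14, adjusted p = 5.0e-08) and 2.83-fold at day 3 (1.499 ± 0.12, adjusted p = 7.7e-12). Leaving out vehicle replicate 1 (0.43, adjusted p = 0.051) or 3 (0.39, adjusted p = 0.067) or AA replicate 1 (0.34, adjusted p = 0.12) ended the AA call of day 1.

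Cdkn1b encodes p27, which accumulates in resting cells, and lies on chromosome 6 at 134920401 to 134925513 on the plus strand. At day 1 it stood at 58.9, 57.1 and 62.9 CPM with vehicle, at 40.1, 41.5 and 39.5 CPM with AA and at 36.3, 39.6 and 37.4 CPM with PGE2. At day 3 vehicle gave 71.1, 63.3 and 63.6 CPM, AA 54.0, 53.4 and 52.9 CPM and PGE2 39.8, 42.4 and 41.9 CPM. Both treatments lay below vehicle on both days without overlap, and at day 3 PGE2 also lay below AA. The fall was 1.48-fold with AA at day 1 (log2 -0.56 ± 0.06, adjusted p = 1.7e-09) and 1.24-fold at day 3 (-0.31 ± 0.06, adjusted p = 4.4e-05), and 1.58-fold and 1.60-fold with PGE2 (-0.66 ± 0.06, adjusted p = 4.3e-11, and -0.68 ± 0.06, adjusted p = 1.4e-11). At day 6 vehicle gave 62.6, 58.3, 54.4 and 56.6 CPM and AA 63.4, 56.2, 61.9 and 58.1 CPM, and the groups overlapped (0.05, 95% interval -0.09 to 0.18, adjusted p = 0.60).

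Myc lies on chromosome 15 at 61985391 to 61990374 on the plus strand. It rose with both treatments at day 1 and was lower only with AA at day 6, a call lost when certain single libraries were left out. The AA response of Myc was not called different between day 3 and day 6 with all libraries. At day 1 it stood at 107, 113 and 99.1 CPM with vehicle, at 129.7, 127 and 118 CPM with AA and at 135, 139.6 and 139 CPM with PGE2, with no overlap between either treatment and vehicle. The rise was 1.18-fold with AA (log2 0.23 ± 0.05, adjusted p = 5.7e-04) and 1.30-fold with PGE2 (0.38 ± 0.05, adjusted p = 4.1e-07). By day 3 vehicle gave 89.3, 84.2 and 92.8 CPM, AA 82.2, 88.6 and 82.3 CPM and PGE2 102, 92.4 and 97.8 CPM. AA and PGE2 each overlapped vehicle. The AA difference was -0.08 (95% interval -0.19 to 0.04, adjusted p = 0.30), and the PGE2 difference of 0.13 ± 0.05 passed narrowly (adjusted p = 0.038). That call was lost without any one of its 6 libraries but vehicle replicate 3 (0.09 to 0.14, adjusted p 0.059 to 0.17). It was also lost with DESeq2 (adjusted p = 0.12) and, in edgeR, with DESeq2's size factors (adjusted p = 0.063) or total counts (adjusted p = 0.12). The same held in edgeR with no filter (adjusted p = 0.22) or without mitochondrial and rRNA-like genes (adjusted p = 0.057). At day 6 vehicle gave 71.7, 68.4, 64.3 and 84.1 CPM and AA 45.5, 67.1, 49.9 and 56.1 CPM. AA replicate 2 reached into the vehicle range while the other 3 AA libraries lay below it. The fall of 1.32-fold (-0.40 ± 0.11, adjusted p = 0.018) passed with all libraries. It no longer did once vehicle replicate 4 (-0.32, adjusted p = 0.096), AA replicate 1 (-0.32, adjusted p = 0.052) or AA replicate 3 (-0.36, adjusted p = 0.062) was left out.

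AA and PGE2 were given at doses that differ, in micromolar and nanomolar amounts, so a difference between them is one between these doses. At day 1, 6 of the 10 members differed between them, all 6 lower with AA, against 27.7% of all genes called (11.3% higher and 16.5% lower). At day 3, 7 differed, 3 higher and 4 lower with AA, against 38.5% (18.1% and 20.3%). Ccnd1 was 1.44-fold lower with AA at day 1 (log2 -0.52 ± 0.05, adjusted p = 1.2e-09) and 1.53-fold lower at day 3 (-0.61 ± 0.05, adjusted p = 4.2e-11). For Ccnd2 the gap went from -0.35 ± 0.05 (adjusted p = 5.3e-07) to -0.80 ± 0.05 (adjusted p = 2.7e-14). The D cyclins and Cdkn1a (-0.33 ± 0.06, adjusted p = 2.1e-05, and -0.22 ± 0.05, adjusted p = 0.0019) thus stood lower with AA on both days, apart from Ccnd3, which was lower at day 1 (-0.32 ± 0.06, adjusted p = 1.0e-04) and higher at day 3 (0.16 ± 0.06, adjusted p = 0.034). The Cdkn1a call of day 3 was lost without PGE2 replicate 2 (-0.16, adjusted p = 0.062), and the Ccnd3 call of day 3 without AA replicate 3 (0.14, adjusted p = 0.083) or PGE2 replicate 1 (0.16, adjusted p = 0.067) or 3 (0.16, adjusted p = 0.079).

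Between the inhibitors the gap narrowed for Cdkn2b and opened for Cdkn1b. Cdkn2b was lower with AA than with PGE2 at day 1 (-0.69 ± 0.13, adjusted p = 1.4e-04), and at day 3 the difference was -0.15 with a 95% interval of -0.36 to 0.06 (adjusted p = 0.28). Cdkn1b showed no called difference at day 1 (0.10, 95% interval -0.03 to 0.22, adjusted p = 0.25) and was 1.29-fold higher with AA at day 3 (0.37 ± 0.06, adjusted p = 6.9e-06). Myc was lower with AA on both days, by -0.14 ± 0.05 at day 1 (adjusted p = 0.041) and -0.21 ± 0.05 at day 3 (adjusted p = 0.0031). The day-1 call was lost without any one of its 6 libraries but AA replicate 1 (-0.10 to -0.16, adjusted p 0.059 to 0.23). It was also lost with DESeq2 (adjusted p = 0.091) and, in edgeR, with DESeq2's size factors (adjusted p = 0.058) or total counts (adjusted p = 0.34). The same held in edgeR with no filter (adjusted p = 0.18) or without mitochondrial and rRNA-like genes (adjusted p = 0.11). Ccne2 was higher with AA at day 3 (0.22 ± 0.07, adjusted p = 0.018), a call lost without AA replicate 1 (0.18, adjusted p = 0.094) or PGE2 replicate 3 (0.19, adjusted p = 0.086). Ccne1 and Cdk6 were not called on either day, nor was Ccne2 at day 1.

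The vehicle organoids themselves moved between day 1 and day 3: 8 members were called, 2 higher and 6 lower, against 40.3% of all genes (19.8% higher and 20.5% lower). The E cyclins fell most, Ccne1 by 1.51-fold (log2 -0.59 ± 0.08, adjusted p = 4.5e-07) and Ccne2 by 1.44-fold (-0.53 ± 0.07, adjusted p = 9.0e-07). Ccnd1 (-0.26 ± 0.05, adjusted p = 2.0e-04), Ccnd2 (-0.23 ± 0.05, adjusted p = 2.5e-04) and Myc (-0.26 ± 0.05, adjusted p = 3.2e-04) fell by less, and Ccnd3 fell by 0.20 ± 0.06 on the log2 scale (adjusted p = 0.012). Cdkn1a was not called (-0.03, 95% interval -0.15 to 0.09). The small rises of Cdkn1b (0.15 ± 0.05, adjusted p = 0.029) and Cdkn2b (0.39 ± 0.15, adjusted p = 0.044) were the only calls upwards, and both were lost without single libraries. For Cdkn1b this was so without vehicle replicate 1 or 2 of day 1 or 1 of day 3 (0.09 to 0.14, adjusted p 0.090 to 0.24), and for Cdkn2b without replicate 1 or 3 of either day (0.34 to 0.38, adjusted p 0.096 to 0.14). The Ccnd3 call was lost without replicate 3 of day 1 (-0.17, adjusted p = 0.057) or of day 3 (-0.17, adjusted p = 0.056). Cdk6, at 0.11 ± 0.06 with all libraries (adjusted p = 0.097), was called higher without replicate 1 of day 3 (0.16, adjusted p = 0.044).

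Whether a response differed between days was tested as the difference of the 2 fold changes. For AA, 7 members responded differently at day 3 than at day 1 (5 upwards and 2 downwards), against 18% of all genes (10% upwards and 7.95% downwards). Cdkn2b gained most, by 0.91 ± 0.20 on the log2 scale (adjusted p = 0.0014), followed by Ccnd2 at 0.44 ± 0.07 (adjusted p = 1.6e-05), Cdkn1a at 0.38 ± 0.08 (adjusted p = 9.2e-04) and Ccnd3 at 0.35 ± 0.09 (adjusted p = 0.0047). Myc lost 0.31 of its response (-0.31 ± 0.08, adjusted p = 0.0044) and Cdk6 likewise went down (-0.28 ± 0.08, adjusted p = 0.012). Cdkn1b recovered by 0.26 ± 0.08 (adjusted p = 0.024). That call ended when any of 4 libraries was left out: vehicle replicate 3 of day 1 (0.22, adjusted p = 0.076), AA replicate 3 of day 1 (0.24, adjusted p = 0.063), or vehicle replicate 2 (0.23, adjusted p = 0.057) or 3 of day 3 (0.23, adjusted p = 0.075). Ccne1 at 0.05 (95% interval -0.17 to 0.27) and Ccne2 at 0.05 (-0.15 to 0.25) were not called. Ccnd1 at 0.20 ± 0.07 just missed the threshold (adjusted p = 0.053) and passed it without vehicle replicate 1 of day 1 (0.23, adjusted p = 0.042), vehicle replicate 3 of day 3 (0.25, adjusted p = 0.020) or AA replicate 1 of day 3 (0.23, adjusted p = 0.032).

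For PGE2, 6 members differed between the days, 3 upwards and 3 downwards, against 24.2% of all genes (12.6% and 11.6%). Ccnd2 gained 0.88 ± 0.07 (adjusted p = 1.4e-11), more than Ccnd1 at 0.29 ± 0.07 (adjusted p = 0.0032) and Cdkn1a at 0.26 ± 0.08 (adjusted p = 0.013). Cdk6 (-0.28 ± 0.08, adjusted p = 0.0089), Myc (-0.24 ± 0.08, adjusted p = 0.018) and Ccne2 (-0.30 ± 0.10, adjusted p = 0.029) went down. The Cdkn1a call was lost without PGE2 replicate 2 of day 1 (0.22, adjusted p = 0.089) or of day 3 (0.21, adjusted p = 0.099). The Myc call ended without vehicle replicate 3 of day 1 (-0.20, adjusted p = 0.061). The Ccne2 call ended without vehicle replicate 2 (-0.23, adjusted p = 0.10) or PGE2 replicate 1 of day 1 (-0.25, adjusted p = 0.11) or PGE2 replicate 3 of day 3 (-0.26, adjusted p = 0.089). The Cdkn1b responses of the days differed by -0.01 (95% interval -0.18 to 0.15). Cdkn2b at 0.37 (-0.02 to 0.77), Ccnd3 at -0.13 (-0.31 to 0.04) and Ccne1 at -0.12 (-0.34 to 0.10) were not called either.

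Between day 3 and day 6 the AA response of 4 members differed, 1 upwards and 3 downwards, against 19.1% of all genes (8.78% and 10.4%). The comparison spans both count tables, so the day cannot be told apart from the table, although each fold change was taken within its own. Ccnd1 lost 0.58 of its log2 response (-0.58 ± 0.09, adjusted p = 3.4e-05), Ccne1 went from a rise to a fall (-0.58 ± 0.11, adjusted p = 3.1e-04), and Ccnd2 dropped by 0.40 (-0.40 ± 0.08, adjusted p = 3.1e-04). Cdkn1b returned to the vehicle level (0.34 ± 0.08, adjusted p = 0.0040). The inhibitors that had risen showed no called difference, with Cdkn1a at 0.16 (95% interval -0.02 to 0.34) and Cdkn2b at -0.27 (-0.62 to 0.07). Cdk6 was not called (0.16, -0.01 to 0.33). Ccnd3 was called without vehicle replicate 2 (-0.37, adjusted p = 0.021) or AA replicate 4 (-0.36, adjusted p = 0.036) of day 6, Ccne2 without vehicle replicate 4 (-0.39, adjusted p = 0.0036), and Myc without vehicle replicate 3 (-0.39, adjusted p = 0.034) or AA replicate 2 (-0.45, adjusted p = 0.0030), against -0.29, -0.26 and -0.34 with all libraries.

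The rest of the G1/S machinery was followed with 25 further genes that were tested (a list of 26, Cdkn2a being too low). This list leaned downwards, least with AA at day 3. AA called 3 higher and 12 lower at day 1, 3 and 7 at day 3, and 2 and 8 at day 6. PGE2 called 5 higher and 10 lower at day 1 and 4 and 15 at day 3. Of all genes, AA called 19.5% higher and 22.2% lower at day 1, then 21.2% and 20.1% at day 3. Its shares were 15.3% and 15.5% at day 6. PGE2 called 27.0% higher and 28.9% lower at day 1 and 28.9% and 30.1% at day 3. The counts of each list below are to be read beside these shares. With total counts and no scaling, the PGE2 count of day 1 became 3 higher and 14 lower. The list's median log2 change went from -0.05 with AA at day 3 to -0.35 with PGE2 at day 3, beside medians of -0.03 and -0.04 over all genes. Cdk4, the second kinase that D cyclins activate, fell in every comparison: its mean went from 286 ± 26.7 CPM (SD, n = 3) with vehicle at day 1 to 185 ± 4.70 CPM with AA and 143 ± 3.12 CPM with PGE2. At day 3 the means were 271 ± 10.8, 195 ± 16.1 and 136 ± 1.71 CPM, and at day 6 they were 279.9 ± 24.8 CPM with vehicle and 212 ± 8.24 CPM with AA (n = 4). In no comparison did the Cdk4 ranges of treated and vehicle libraries overlap, and its log2 changes were -0.62, -0.48 and -0.40 with AA (adjusted p = 1.3e-10, 3.8e-08 and 9.2e-04) and -1.002 and -0.997 with PGE2 (adjusted p = 1.5e-15 and 1.9e-15).

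Further genes of the list moved down with Cdk4. Cdkn2c, which encodes the INK4 inhibitor p18, fell with AA by 0.68 ± 0.10 on the log2 scale at day 1, 0.38 ± 0.11 at day 3 and 0.34 ± 0.07 at day 6, and with PGE2 by 0.87 ± 0.11 and 0.86 ± 0.11 (adjusted p at most 0.0057). Skp2, part of the ubiquitin ligase that marks p27 for destruction, fell by 0.45 ± 0.11 and 0.39 ± 0.12 with AA at days 1 and 3 and by 0.69 ± 0.12 and 0.98 ± 0.12 with PGE2 (adjusted p at most 0.0075). E2f1, a factor that RB1 holds back, fell with AA at day 6 from 24.6 ± 3.31 to 16.6 ± 1.98 CPM (-0.56 ± 0.11, adjusted p = 0.0021). Lower E2f1 was not confined to day 6. At day 3 its means were 19.3 ± 1.64 CPM with vehicle, 15.5 ± 1.02 CPM with AA and 13.3 ± 0.771 CPM with PGE2. Both treated ranges of day 3 lay below that of vehicle. At day 1 the means were 22.3 ± 1.06, 18.9 ± 1.96 and 21.6 ± 0.126 CPM in the same order. Members of the list that rose included E2f7, a repressor of the E2F family, with PGE2 at day 1 (0.71 ± 0.07, adjusted p = 2.5e-10), E2f2 with both treatments at day 3 (0.45 ± 0.06 with AA and 0.55 ± 0.06 with PGE2) and Rb1 with AA at day 6 (0.51 ± 0.12, adjusted p = 0.0081). For Rb1 the vehicle library that stood apart held 39.6 CPM against 56.6 to 60.8 CPM in the other 3, and without it the rise was 0.39 (adjusted p = 0.0045). Cdkn2a, which encodes p16 and p19ARF, had 0 to 6 counts in a library and was not tested.

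**Figure D4:**
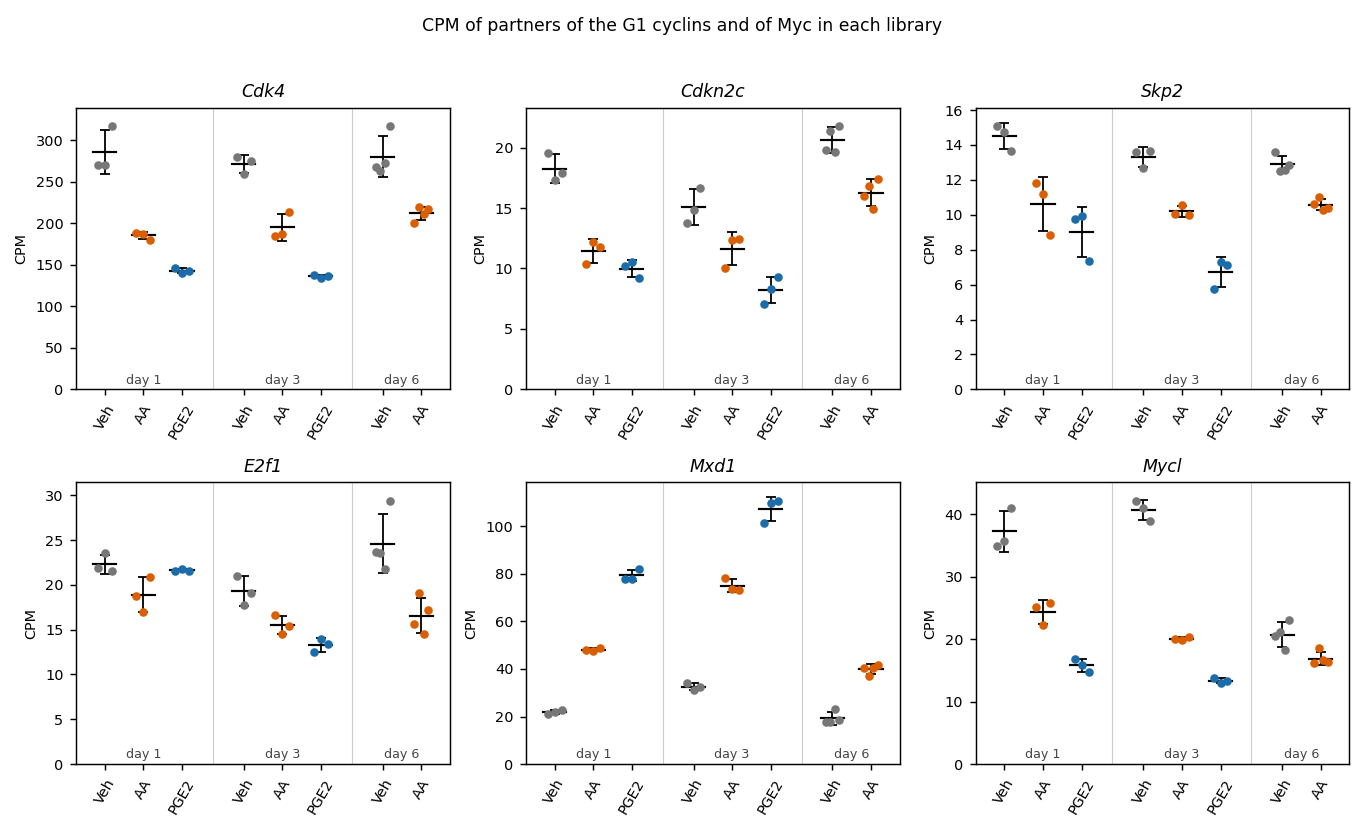
Level of partner genes of the 10 members in every library, in TMM-scaled CPM on linear axes, by day and treatment, with 1 point per library and the mean ± SD of each group. Cdk4, Cdkn2c, Skp2 and Mycl have means that step down from vehicle to AA to PGE2 at days 1 and 3, and Mxd1 steps up, from 22.0 to 48.2 and 79.3 CPM at day 1.

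Mxd1 had larger log2 changes than Myc in every treatment comparison. It competes with Myc for their shared partner Max and represses through the same E-boxes, and it stood at 22.0 ± 0.688 CPM with vehicle at day 1, at 48.2 ± 0.668 CPM with AA and at 79.3 ± 2.40 CPM with PGE2 (SD, n = 3). Its log2 rise was 1.13 ± 0.06, 1.1996 ± 0.06 and 1.05 ± 0.09 with AA at days 1, 3 and 6 and 1.85 ± 0.06 and 1.72 ± 0.05 with PGE2, with no overlap between groups (adjusted p at most 7.9e-06). Mycl, a paralogue of Myc, went the other way, from 40.7 ± 1.63 CPM with vehicle at day 3 to 20.1 ± 0.246 CPM with AA and 13.4 ± 0.434 CPM with PGE2, or -1.02 ± 0.07 and -1.61 ± 0.08. At day 1 its log2 change was -0.61 ± 0.07 with AA and -1.23 ± 0.08 with PGE2, and at day 6 it was -0.29 ± 0.08 with AA (adjusted p at most 0.020). The day-6 call of Mycl was lost without AA replicate 1, 3 or 4 (adjusted p 0.057 to 0.061). Of the 12 genes of the Myc network other than Myc, AA called 1 higher and 3 lower at day 1, 3 and 4 at day 3, and 3 and 1 at day 6, and PGE2 called 2 and 3, then 5 and 5.

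Genes that Myc is known to activate in ribosome production and polyamine synthesis were mostly not called with AA at the early times and lower at day 6. Of 20, AA called 3 lower at day 1, 3 higher and 4 lower at day 3, and 19 lower at day 6, where the median log2 change was -0.30 against -0.01 over all genes. The largest falls of day 6 were in Srm, the spermidine synthase (85.6 to 59.2 CPM, -0.53 ± 0.10, adjusted p = 0.0024), Nop56 (-0.49 ± 0.06, adjusted p = 7.2e-05) and Ppan (-0.43 ± 0.06, adjusted p = 2.5e-04), the last 2 being ribosome assembly factors. PGE2 called 3 higher and 10 lower at day 1 and 2 higher and 15 lower at day 3, with medians of -0.12 and -0.25. With total counts and no scaling, the AA count of day 3 became 2 higher and 7 lower and the PGE2 count of day 1 became 1 and 13. Fbl and Npm1, nucleolar proteins, led the falls with PGE2 on both days, at -0.44 ± 0.06 each day for Fbl and -0.41 ± 0.06 and -0.45 ± 0.06 for Npm1. Without the vehicle library of day 6 that stood apart, AA still called 19 of the 20 lower at day 6.

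Genes of replication and mitosis leaned the same way, least with AA at day 3. Of 20, AA called 8 lower at day 1, 3 higher and 6 lower at day 3, and 12 lower at day 6, and PGE2 called 3 higher and 9 lower at day 1 and 18 lower at day 3 (median -0.41 against -0.04 over all genes). With total counts and no scaling, the AA count of day 3 became 2 higher and 10 lower and the PGE2 count of day 1 became 1 and 12. Mki67, the proliferation marker, went from 734 ± 16.1 CPM with vehicle at day 3 to 557 ± 6.24 CPM with PGE2 (-0.40 ± 0.06, adjusted p = 8.3e-07), and from 1151 ± 20.4 to 992 ± 48.3 CPM with AA at day 6 (-0.21 ± 0.05, adjusted p = 0.011, and 0.0503 without AA replicate 3). Top2a, which untangles DNA for mitosis, fell by 0.76 ± 0.05 with PGE2 at day 3 (adjusted p = 1.1e-14). The vehicle organoids called all 20 lower at day 3 than at day 1, with a median of -0.37.

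p53 target genes other than Cdkn1a leaned upwards, least with AA at day 1. Of 18, AA called 5 higher and 3 lower at day 1, 12 higher at day 3 and 9 higher at day 6, with medians of 0.09, 0.26 and 0.32. PGE2 called 13 higher and 1 lower at day 1 and 17 higher and 1 lower at day 3, where the median was 0.81 against -0.04 over all genes. With total counts and no scaling, the PGE2 count of day 1 became 8 higher and 1 lower. Plk2, a kinase induced by stress, rose from 40.7 to 113 CPM with PGE2 at day 3 (1.46 ± 0.07, adjusted p = 2.1e-16), Trp53inp1 from 71.9 to 208 CPM (1.53 ± 0.05, adjusted p = 8.7e-21) and Phlda3, an inhibitor of AKT, from 18.7 to 44.2 CPM (1.24 ± 0.16, adjusted p = 5.3e-06). With AA at day 6, Trp53inp1 rose from 17.97 to 33.2 CPM (0.88 ± 0.11, adjusted p = 1.8e-04) and Fas, a death receptor, from 2.12 to 3.94 CPM (0.89 ± 0.15, adjusted p = 0.0012). Sesn1 fell with PGE2 on both days (-0.74 ± 0.09 and -0.27 ± 0.08), the 1 gene of the list that did.

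Genes known to respond to TGF-beta or BMP through SMAD factors also leaned upwards at days 1 and 3. Cdkn2b is known as a target of TGF-beta, and the list does not separate TGF-beta from BMP. A link between the list and Cdkn2b was not tested. Of 12, AA called 7 higher at day 1 and 8 higher and 1 lower at day 3, and PGE2 called 9 and 1, then 10 and 1, with medians of 0.59, 0.64, 1.51 and 1.03. Id1, an inhibitor of helix-loop-helix factors, rose from 13.98 CPM with vehicle at day 1 to 43.8 CPM with AA and 64.7 CPM with PGE2 (1.65 ± 0.10 and 2.21 ± 0.09, adjusted p = 6.8e-14 and 1.8e-17). At day 6 the list split, with 3 of 11 genes higher and 3 lower and a median of 0.01, while Cdkn2b itself remained 2.13-fold above vehicle.

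**Figure D5:**
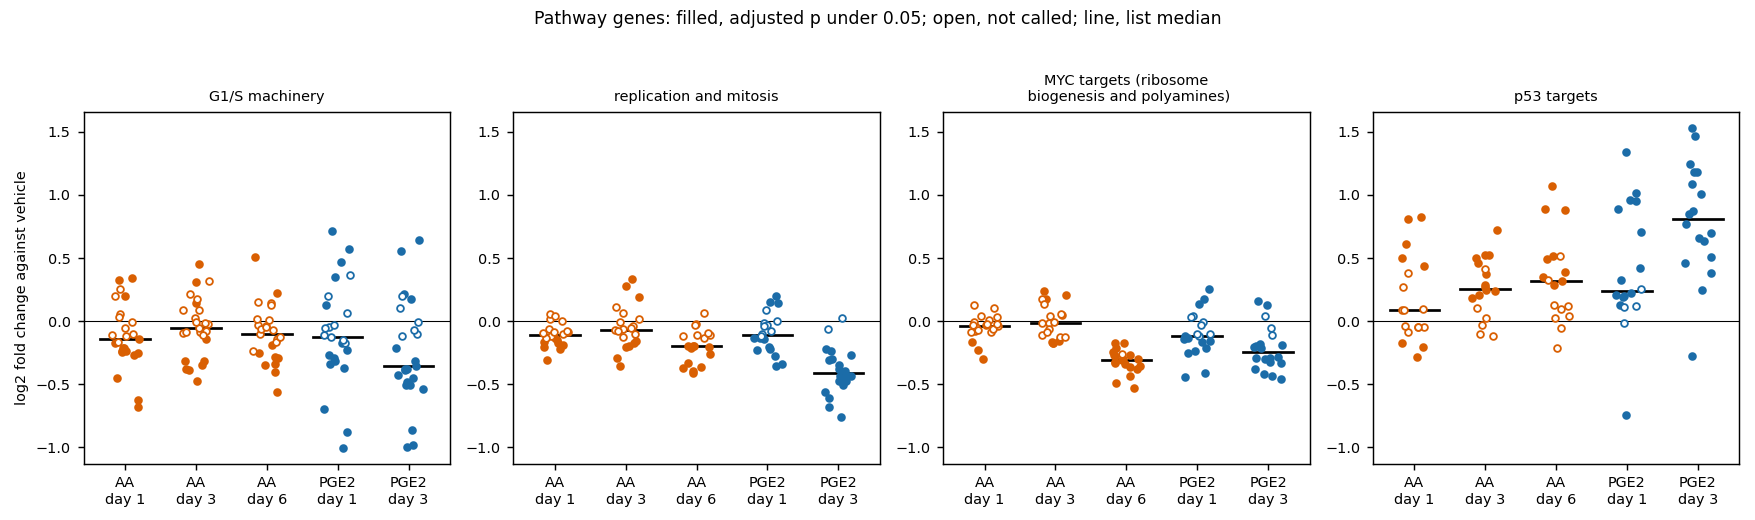
Log2 fold change against vehicle of each gene in 4 pathway lists, the 10 members left out, for AA at days 1, 3 and 6 and PGE2 at days 1 and 3, with filled points called at an adjusted p under 0.05, open points not called and a line at the list's median. The p53 points lie mostly above 0 with PGE2 at day 3, where 17 of 18 are called higher, 18 of 20 replication and mitosis genes are called lower there, and 19 of 20 Myc targets are called lower with AA at day 6.

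The cell-type markers moved with the treatments too. The 6 crypt base columnar stem cell markers summed to 1937 to 2061 CPM with vehicle at day 3, to 678 to 724 CPM with AA and to 400 to 425 CPM with PGE2, and Lgr5 itself went from 137 ± 13.7 to 40.5 ± 2.32 and 16.0 ± 2.84 CPM. At day 1 the stem cell sums were 678 to 713, 379 to 395 and 277 to 300.5 CPM in the same order. The day-6 sums overlapped, at 686 to 853 CPM with vehicle (median 765) and 513 to 747 CPM with AA (median 602). Lgr5 went against the lower median of its list. It was higher with AA, at 64.2 ± 7.39 CPM against 45.6 ± 5.61 CPM (SD, n = 4, log2 0.49 ± 0.10, adjusted p = 0.0026). The 5 enterocyte markers summed to 772 to 775 CPM with vehicle at day 3, 1614 to 1850.5 CPM with AA and 1478 to 1679 CPM with PGE2, and at day 6 to 716 to 957 CPM with vehicle and 1833 to 2394 CPM with AA. Paneth cell markers summed to 1615 to 1829 CPM with vehicle at day 3, to 554 to 687 CPM with AA and to 560 to 601 CPM with PGE2. The sum of the 5 goblet cell markers at day 3 went in opposite directions with the treatments. It was 944 to 995 CPM with vehicle, 563 to 714 CPM with AA and 2021 to 2039 CPM with PGE2. Muc2, a marker in that sum, did not fall with AA. Its day-3 means were 16.7 ± 3.54 CPM with vehicle, 20.4 ± 5.38 CPM with AA and 80.8 ± 2.68 CPM with PGE2 (SD, n = 3). At day 6 the goblet sums were higher with AA, at 2420 to 2628 CPM against 1847 to 2324 CPM with vehicle. In such bulk samples, fewer cells of a type and less RNA per cell cannot be told apart. The part of these shifts in the changes of the 10 genes was not tested.

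Likeness across the 18 libraries of days 1 and 3 was described by Pearson's r of log2 CPM against 9219 other genes, which share the libraries and the treatment groups with each member. The closest gene was S100a6 for Ccnd1 (r = 0.991), Ahcyl2 for Ccnd2 (0.987), Rilpl2 for Ccnd3 (0.890), Prps1 for Ccne1 (0.967), Kpnb1 for Ccne2 (0.973), Ftx for Cdk6 (0.846), Pepd for Cdkn1a (0.977), Mgat4b for Cdkn1b (0.967), Plin3 for Cdkn2b (0.967) and Brd2 for Myc (0.952). Cdk6 and Ccnd3 thus had the loosest matches. Rrm2, a subunit of the enzyme that makes deoxynucleotides, came next for Ccne1 (0.963), and Mcm4, a subunit of the replicative helicase, next for Ccne2 (0.971). Among the members, the closest pairs were the E cyclins (r = 0.926, n = 18 libraries) and the inhibitors Cdkn1a and Cdkn2b (0.923). The most opposed pair was Ccnd1 and Cdkn1b (-0.893). With both days pooled, Cdkn1a and Myc had r = 0.0654, although the means of both climbed from vehicle to AA to PGE2 at day 1.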

How the data were processed

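Gene counts of 26 organoid libraries were deposited by the authors as 2 tables of raw read counts, one for days 1 and 3 and one for day 6. Per the submitters' processing notes, cutadapt, STAR, DESeq2 and limma 3.46 were used, and the genome named there is GRCh38.p6, a human build, although the identifiers are mouse Ensembl genes. No source used here gives the strand setting of the counting, so it is not known. Symbols were found for 55144 of the 55385 identifiers. Counts were tested in R 4.3.3 with edgeR 4.0.16 (TMM scaling, filterByExpr, robust quasi-likelihood F test, Benjamini-Hochberg adjustment over all genes tested, threshold 0.05), on 14850 genes at days 1 and 3, 14663 at day 6 and 15504 in the joint fit of both tables. CPM are TMM-scaled within a table, errors of levels are SD and errors of log2 changes SE. The 10 members and the lists were chosen with earlier results of these data known, which is also true of the motifs. All members are named in every comparison, and of each pathway list the text takes up to 3 called genes in each direction with the largest change and a mean log2 CPM no lower than 1, besides Mki67, reference markers of cell types and the closest genes by correlation. For genes so named, values in their other comparisons and the untested Cdkn2a were added after they were seen. Promoter windows came from RefSeq and gene positions from GENCODE. Replicate numbers did not pair libraries: 3 of 45 same-numbered pairs at days 1 and 3 and 1 of 4 at day 6 had correlated deviations above 0.1. No pair of replicates agreed within sampling noise. The scripts were tested on simulated counts. The alternatives were other scalings (including DESeq2 1.42.0), filters, the replicate block and leaving out each library.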

Additional observations from a re-analysis of the deposited data

Results flagged for a closer look

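Ccne2 in replicate 4 of the day-6 vehicle group lay at 18.4 CPM, far below the 27.4 to 28.9 CPM of the other 3 libraries. Of the 26 groups of 4 values examined for such a gap it was the 1 found. Chance flags about 1 in 20 such groups, so 1 of 26 is no more than chance gives. The D cyclin shares among these groups sum to a fixed total and are not independent. Without that library Ccne2 was lower with AA at day 6 (log2 -0.29, adjusted p = 0.0026), and the same library carried the highest values of Myc (84.1 CPM) and Ccnd3 (55.6 CPM) in its group.

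The response to AA differed between day 3 and day 1 in Ccnd2 (0.44), Ccnd3 (0.35), Cdk6 (-0.28), Cdkn1a (0.38), Cdkn1b (0.26), Cdkn2b (0.91) and Myc (-0.31), each a log2 difference of fold changes tested in edgeR. The response to PGE2 differed between those days in Ccnd1 (0.29), Ccnd2 (0.88), Ccne2 (-0.30), Cdk6 (-0.28), Cdkn1a (0.26) and Myc (-0.24). The response to AA differed between day 6 and day 3 in Ccnd1 (-0.58), Ccnd2 (-0.40), Ccne1 (-0.58) and Cdkn1b (0.34). These 17 differences are those past the threshold among 30 examined. Of all genes, 18%, 24.2% and 19.1% passed it in the same comparisons, in the order given here.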

How the results depend on the processing

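Over 1720 repeats of a member's result under another setting, 1596 kept their side of the threshold (32 values that were not called changed sign), 103 lost a call, 21 gained one and 0 reversed a called direction. Leaving out 1 library accounted for 66 of the losses in 880 repeats, total counts without scaling for 15 in 110, DESeq2 for 8 and no filter for 7. DESeq2 ended the calls of Ccne1 with each treatment and Ccne2 with PGE2 at day 1, and of Myc with PGE2 at day 3. It also ended those of Myc for AA against PGE2 at day 1, of Cdkn1b and Cdkn2b in vehicle over time, and of Ccne2 in the PGE2 response. The PGE2 response of day 3 against day 1 called 6 members in the main analysis and 3 with total counts and no scaling. With 1 library left out, the number of members called with AA at day 1 ranged from 4 to 7 (8 with all libraries), with 4 without AA replicate 1 and 5 without vehicle replicate 3. Total counts moved the median of all genes by at most 0.08 on the log2 scale in the treatment comparisons but shifted the split of all calls with AA at day 3 from 51.3% higher to 38.7% higher. The same setting moved the share called higher from 40.6% to 59.5% for AA against PGE2 at day 1, from 49.2% to 64.6% for vehicle over time, and for the responses from 55.7% to 41.2% (AA, day 3 against day 1), 52.2% to 63.5% (PGE2) and 45.9% to 63.1% (AA, day 6 against day 3). In the treatment comparisons with vehicle, no gene called in a pathway list changed sign under either other scaling. That list check, the removal of the day-6 vehicle library for the lists and the removal of each day-6 library for other named genes were chosen after seeing the data. With the replicate block, Ccnd1 gained a call in the AA response of day 3 against day 1 (adjusted p = 0.036) and Ccnd3 in that of day 6 against day 3 (adjusted p = 0.025), and 0 were lost; correlated deviations of same-numbered libraries ran from -0.083 to 0.16. Counts of 53 to 541 limit Cdkn2b, intervals cover the spread between these libraries, and PGE2 was not followed at day 6.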

Other observations

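Genes that feed back on ERK signalling, which D cyclins are known to follow, were tested as a further list of 12. AA called 7 higher and 3 lower at day 1, 4 and 2 at day 3 and 6 higher at day 6, with medians of 0.43, 0.00 and 0.36, and PGE2 called 7 and 2, then 7 and 4, with medians of 0.74 and 0.32. With total counts and no scaling the AA median of day 3 was -0.06. In these comparisons 30.7% to 58.9% of all genes were called. Ier3, an immediate early gene, rose from 13.001 to 49.7 CPM with AA and to 84.3 CPM with PGE2 at day 1 (1.93 ± 0.12 and 2.70 ± 0.12, adjusted p = 1.3e-10 and 1.3e-13 in edgeR). Dusp6, a phosphatase of ERK, rose with PGE2 on both days (1.71 ± 0.07 and 1.18 ± 0.07) and with AA at day 6 (0.63 ± 0.08). Etv5, a transcription factor, fell with both treatments at days 1 and 3, from 30.0 to 17.9 CPM with AA and to 14.9 CPM with PGE2 at day 1.

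Across the 18 libraries of days 1 and 3, Ccnd1 and Cdkn1a had r = 0.897 (Pearson, log2 CPM), and Ccnd2 and Cdkn1a 0.900. The libraries share their treatment groups, so these values are a description.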
